A study of Homo sapiens with 3 samples.

Results

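The 9 genes described here encode the receptor chains of type I interferon (IFNAR1 and IFNAR2) and of interferon gamma (IFNGR1 and IFNGR2), the kinases JAK1 and TYK2, and the transcription factors STAT2, IRF9 and IRF1. They were chosen by name from the core of the interferon signalling pathway, and all 9 were found among the 22613 genes listed in each library. The libraries came from LNCaP-abl, an androgen-independent line derived from the prostate cancer line LNCaP and grown in charcoal-stripped serum. The cells had been transfected with an siRNA pool against the transcription factor E2F1 (siE2F1, 1 library) or with control siRNA (2 libraries, numbered 0 and 1 by the submitters), and RNA was collected 72 h later. Every library shares the lipid transfection and the steroid-poor medium, and no untransfected cells were compared. All libraries come from 1 cell line, siE2F1 has no replicate, and no label tells whether the control libraries were grown separately. Any p-value below therefore rests on the spread between the 2 controls, which could be purely technical.

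Type I interferons bind IFNAR1 and IFNAR2, which carry the kinases TYK2 and JAK1. Interferon gamma binds IFNGR1 and IFNGR2, and its signal also needs JAK1. The type I signal assembles STAT proteins, STAT2 among them, with IRF9 into a complex that binds the interferon-stimulated response element (ISRE) in front of antiviral genes. The interferon gamma signal acts mainly through STAT dimers on a shorter site, the gamma-activated sequence (GAS), and IRF1 is a classical gene of that kind whose product activates further genes. STAT2 and IRF9 are themselves induced by interferon in many cell types. LNCaP cells are known for their weak answer to interferon, and a lack of JAK1 has been reported in them, so the level of JAK1 in this derivative is of interest.

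The GAS motif was found in front of IRF9 and IRF1, a pair of factors with like levels in the controls and unlike levels in siE2F1, and their sequences are shown for that reason together with that of STAT2. Promoter windows of 300 bases (250 before to 50 after an annotated start, RefSeq, GRCh38.p14, a later build than the hg19 of the expression files) were on hand for 8 of the 9 genes, 12 windows in all. IFNAR2 had none. Capitals mark a GAS match (TTCNNNGAA, which reads the same on both strands). The IRF9 stretch is chr14:24161192-24161220 on the plus strand, with the match starting 63 bases before the start. The IRF1 stretch is chr5:132490799-132491023 on the minus strand, with the match 124 bases before the start. The STAT2 stretch, chr12:56360156-56360357 on the minus strand, holds no match.
IRF9: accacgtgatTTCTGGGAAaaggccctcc
IRF1: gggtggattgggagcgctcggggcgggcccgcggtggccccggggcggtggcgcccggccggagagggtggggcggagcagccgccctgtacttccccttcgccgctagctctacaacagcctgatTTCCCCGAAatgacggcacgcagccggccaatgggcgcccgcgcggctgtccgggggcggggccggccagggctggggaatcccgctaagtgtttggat
STAT2: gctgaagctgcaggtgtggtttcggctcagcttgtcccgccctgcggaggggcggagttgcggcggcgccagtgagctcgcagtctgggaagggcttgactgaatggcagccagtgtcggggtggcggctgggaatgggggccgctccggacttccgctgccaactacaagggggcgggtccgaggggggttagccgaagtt
A GAS match occurs in 7.66% of all 35116 promoter windows. No window of the 8 genes holds the ISRE core, a pair of GAAA repeats with 2 bases between them, on either strand, which 3.57% of all windows hold, or the E2F letters TTTCGCGC or TTTGGCGC on either strand, which 1.15% hold. These are matches of letters in a fixed window, not measured binding sites.

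E2F1 itself stood at 10.6 FPKM in both controls and at 1.68 FPKM in siE2F1, as its label says (log2 fold change -2.12, limma adjusted p = 0.0311). FPKM is a read level scaled for gene length and library, so levels of different genes can be set side by side. The deposited values have nearly the same distribution in each library, read counts were not given and the depth is unknown. Luminal prostate markers were strong (FOLH1 at 318 FPKM in control 0 and 339 FPKM in each of the others), while KLK3, which encodes PSA, did not exceed 0.156 FPKM. Over whole marker lists the summed level ran from 813.1 to 885.3 FPKM for 8 luminal markers, from 9.94 to 9.97 FPKM for the 3 of 7 leukocyte markers in the files, from 1.20 to 1.74 FPKM for 3 of 6 fibroblast markers and from 0.696 to 0.837 FPKM for 1 of 4 endothelial markers.

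In the controls the 9 genes spanned levels from 1.84 FPKM to 21.4 FPKM. The order, by the mean of the controls, was IFNGR2, TYK2, STAT2, IFNAR1, IFNGR1, IFNAR2, IRF9, IRF1 and JAK1. TYK2 and STAT2 were the only neighbours in that order whose control values overlapped. In siE2F1 the order changed in its middle: STAT2 moved ahead of TYK2, IFNGR1 ahead of IFNAR1, and IRF9 ahead of IFNAR2, while IFNGR2 remained the highest, and IRF1 and JAK1 the lowest.

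**Figure D1:**
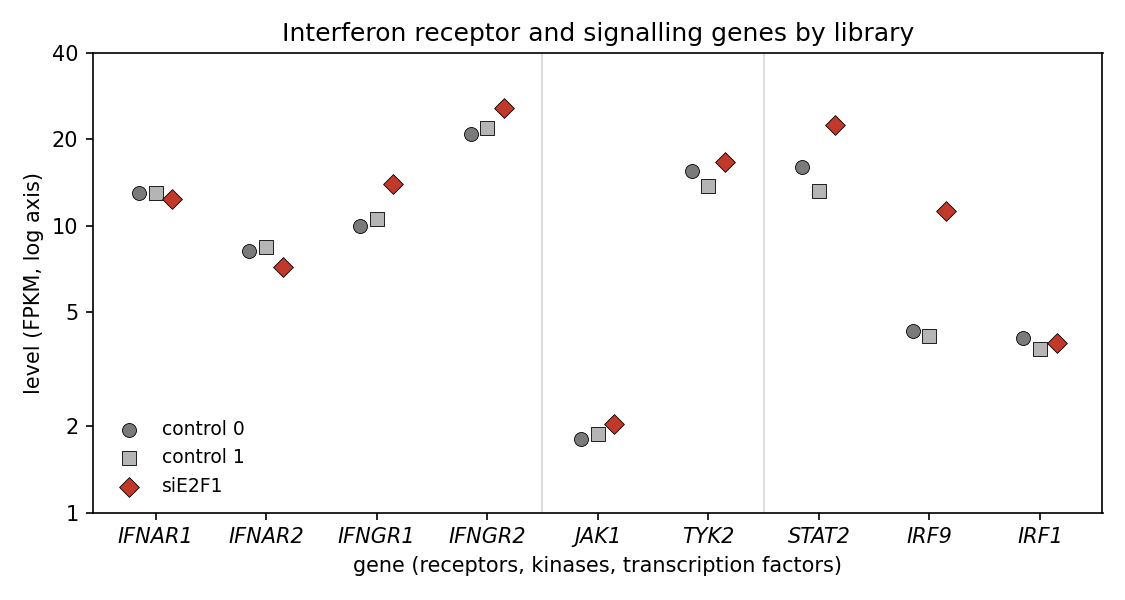
Level of each gene (FPKM, log axis) in control 0 (circles), control 1 (squares) and siE2F1 (diamonds), with receptors, kinases and transcription factors separated by vertical lines; each symbol is 1 library. IRF9 in siE2F1 (11.2 FPKM) lies far above its controls (4.29 and 4.13 FPKM), and JAK1 is the lowest gene in each library.

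JAK1, the kinase that both receptor types need, was listed at 1.81 FPKM in control 0, 1.87 FPKM in control 1 and 2.03 FPKM in siE2F1. It was thus low but above 0 in each library, with 44.0% and 44.4% of all listed genes at a lower or equal level in the controls. Its control mean was 1.84 FPKM ± 0.0455 (SD, n = 2). Against the controls siE2F1 gave a log2 fold change of 0.09 (95% interval -0.17 to 0.36, limma adjusted p = 0.488), which did not pass. Fold changes and intervals here are on the log2(FPKM + 1) scale, which understates changes of low genes such as this one. TYK2, the kinase carried by IFNAR1, was at 15.5, 13.8 and 16.7 FPKM in the same libraries, 8.59, 7.37 and 8.21 times the level of JAK1. Its log2 fold change of 0.18 (95% interval -0.17 to 0.53, adjusted p = 0.354) came with controls 0.16 apart, and siE2F1 was only 0.10 above the nearer one. The kit does not mark strand, and exons of JAK1 overlap those of RAVER2 on the other strand (7.22, 7.61 and 9.04 FPKM), so part of a value this low could belong to that gene. The share was not tested.

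Both type I receptor chains lay below both controls in siE2F1 and both interferon gamma chains above them, where 39.7% of all genes tested were below and 43.7% above. None of the 4 passed in either fit. IFNGR1, the ligand-binding chain, had 9.95 FPKM in control 0, 10.6 FPKM in control 1 and 14.0 FPKM in siE2F1, so the groups did not overlap. Its log2 fold change was 0.41 (95% interval 0.16 to 0.66), and its adjusted p (limma) was 0.121 over all genes and 0.0546 without small RNA genes. IFNGR2, the accessory chain, had 20.8 FPKM in control 0, 21.95 FPKM in control 1 and 25.7 FPKM in siE2F1 (log2 fold change 0.26, adjusted p = 0.166). TMEM50B, whose exons overlap IFNGR2 on the opposite strand, stood beside it at 22.5, 24.6 and 29.6 FPKM (log2 fold change 0.32). Reads from the overlap cannot be assigned without strand, and how far it sets the IFNGR2 value was not tested.

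IFNAR1 was nearly level, at 13.02, 13.01 and 12.4 FPKM (log2 fold change -0.06, 95% interval -0.26 to 0.14, limma adjusted p = 0.526). IFNAR2, the chain of type I interferon that carries JAK1, was at 8.17, 8.46 and 7.15 FPKM (log2 fold change -0.19, adjusted p = 0.2). The ratio of IFNGR1 to IFNAR2 within a library was 1.22 in control 0, 1.25 in control 1 and 1.96 in siE2F1. The ratio of IFNGR1 to IFNAR1 was 0.764, 0.814 and 1.13. Neither ratio was tested, and both, like the other ratios given here, could be altered by an upstream step that equalized the distributions of the libraries. IFNAR2, IL10RB, IFNAR1 and IFNGR2 lie next to each other on chromosome 21 in RefSeq's GRCh38.p14 assembly. IL10RB, a chain of the interleukin-10 and interferon lambda receptors, was at 6.59, 7.31 and 7.23 FPKM, within its controls, so these 4 neighbours did not stand on a common side. A transcript that runs from IFNAR2 into IL10RB is annotated and could share reads with both.

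IRF9, the DNA-binding subunit of the type I interferon complex, differed most of the 9. It stood at 4.29 FPKM in control 0, 4.13 FPKM in control 1 and 11.2 FPKM in siE2F1, where it was 2.67 times the control mean of 4.21 FPKM ± 0.111 (SD, n = 2). The siE2F1 value was 1.21 log2 units above the nearer control, and the controls were 0.04 apart. On the log2 scale the fold change came to 1.23 (standard error 0.0649, 95% interval 1.01 to 1.45). Over all 14401 genes tested IRF9 did not pass (limma adjusted p = 0.0945). It rose in the fit that left out small RNA genes (adjusted p = 0.0221), where 35 of 13928 genes, 0.251%, had a log2 fold change at least as high. IRF9 moved from being higher than 55.5% and 55.0% of listed genes in the controls to 72.2% in siE2F1. RNF31, the gene next to IRF9 on its 5′ side, was at 13.4, 12.5 and 12.2 FPKM, and REC8 on its 3′ side did not exceed 0.374 FPKM. A longer annotated transcript shares exon sequence with IRF9 on the same strand, and its reads cannot be separated here.

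STAT2, the STAT protein that pairs with IRF9, had 16.0 FPKM in control 0, 13.2 FPKM in control 1 and 22.4 FPKM in siE2F1. The siE2F1 library was the highest, but the controls were themselves 0.25 log2 units apart, a gap that 8.13% of genes other than small RNA genes exceeded. The fitted log2 fold change was 0.59 (standard error 0.147, 95% interval 0.09 to 1.09), and STAT2 passed neither over all genes (limma adjusted p = 0.151) nor without small RNA genes (adjusted p = 0.0641). It was 0.46 against control 0 alone and 0.72 against control 1 alone. Because IRF9 moved further than STAT2, the ratio of STAT2 to IRF9 was 3.73 and 3.20 in the controls and 2.00 in siE2F1. STAT2 and TYK2 were at about the same level in the controls (ratios 1.03 and 0.96), and STAT2 was 1.34 times TYK2 in siE2F1.

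IRF1, the factor induced mainly by interferon gamma, was the single gene of the 9 whose siE2F1 value lay between the controls. It was at 4.07 FPKM in control 0, 3.70 FPKM in control 1 and 3.89 FPKM in siE2F1 (log2 fold change 0.00, 95% interval -0.29 to 0.30, limma adjusted p = 0.991). A change within that interval is not excluded. The interval is no limit of detection, since STAT2 (0.59) and IRF9 (1.23) did not pass over all genes either. IRF9 and IRF1 were at similar levels in the controls (ratios of IRF9 to IRF1 of 1.05 and 1.12) and apart in siE2F1 (2.89). Each has a GAS match in the stretch printed above, and whether these matches bear on the levels was not tested. C5orf56, which overlaps IRF1 on the opposite strand, was at 2.55, 2.49 and 2.87 FPKM.

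**Figure D2:**
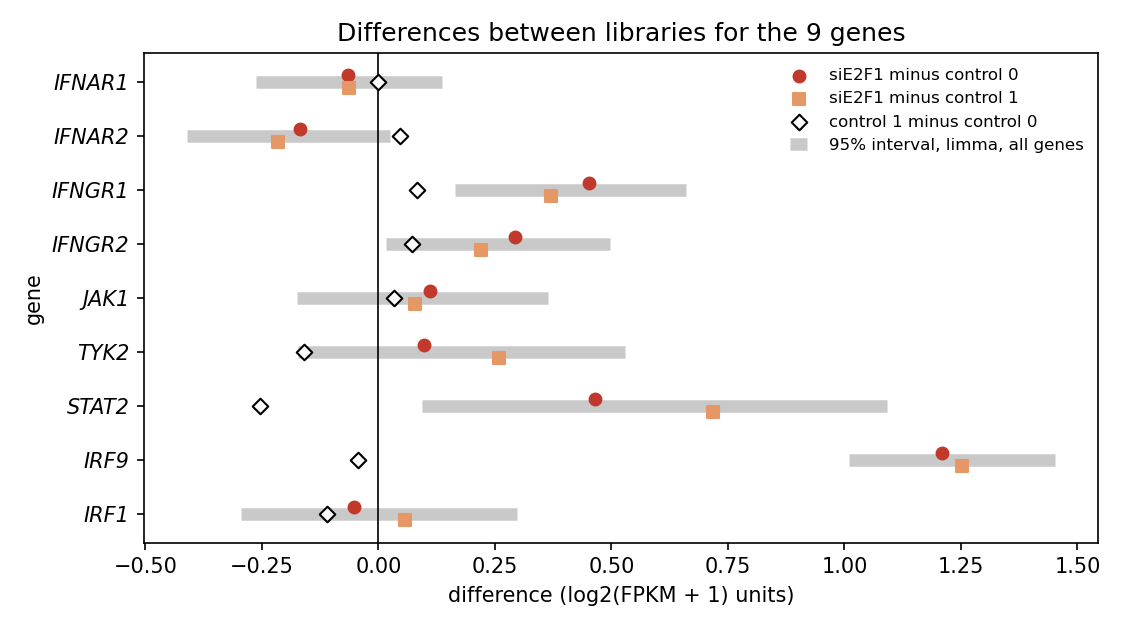
Differences between libraries for each gene on the log2(FPKM + 1) scale: siE2F1 minus control 0 (red circles), siE2F1 minus control 1 (orange squares), control 1 minus control 0 (open diamonds) and the 95% interval of the limma fit over all genes (grey bars). IRF9 differs by 1.21 and 1.25 from the controls, which are 0.04 apart, whereas the STAT2 controls are 0.25 apart and IRF1 lies on both sides of 0.

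Counted together, 6 of the 9 genes were above both controls, 2 were below and 1 was between. Over all genes tested 43.7% were above both controls and 39.7% were below. The median log2 fold change of the 9 was 0.18, beside 0.01 over all genes tested. None of the 9 passed over all genes in either direction (limma, where 0.417% of genes passed and 0.312% passed as higher). An unadjusted p under 0.05 (limma) was seen for 4 of them, all higher. In either direction 28.4% of all 14401 genes tested had such a p, 1938 genes as higher and 2149 as lower. Without small RNA genes 1 of the 9 passed, IRF9, where 10.5% of genes passed and 4.17% passed as higher. IRF9 was also the only one at least 2-fold beyond both controls, on the higher side. In either direction 1.58% of all genes tested were, 107 genes higher and 120 lower. The share of the 9 that passed is thus near that of genes in general in either fit. More RNA per cell and a larger share of cells that hold it cannot be told apart in bulk libraries.

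**Figure D3:**
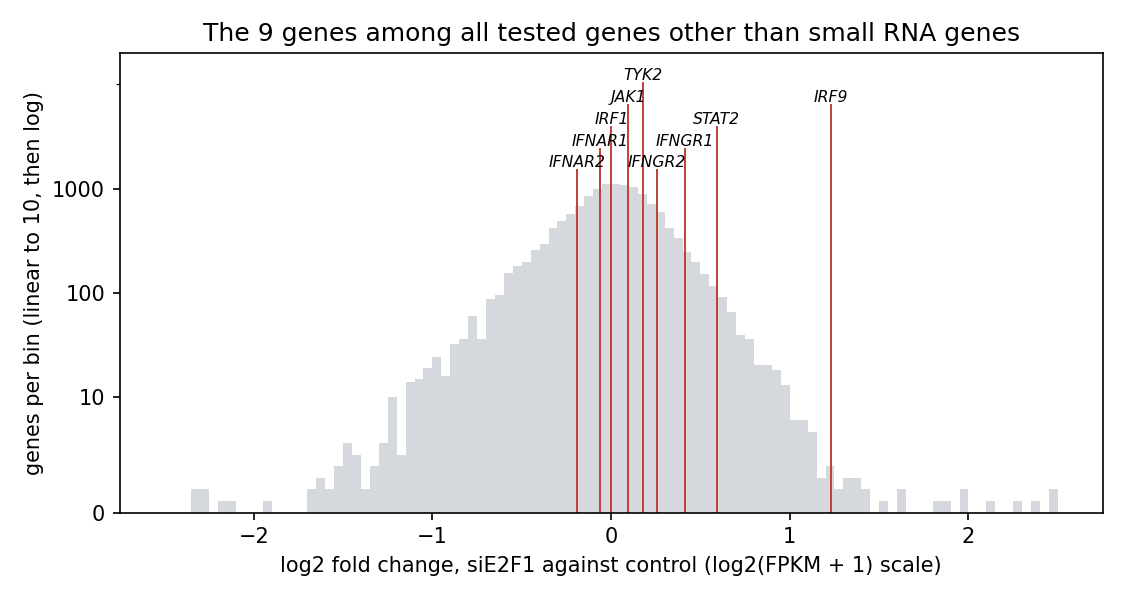
Histogram of the log2 fold change (siE2F1 against control, log2(FPKM + 1) scale) of the tested genes other than small RNA genes, with the vertical axis linear up to 10 genes and logarithmic above; red lines mark the 9 genes, and 10 genes beyond 2.5 in size are not drawn. IRF9 at 1.23 lies in the sparse upper tail, STAT2 at 0.59 on its shoulder and IRF1 at 0.00 in the centre.

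Genes around these 9 were read from lists chosen by function. Interferon genes themselves were scarcely detected: 4 of the 24 symbols searched (older and newer names counted apart) were in the files, and none reached the 1 FPKM needed for testing. The type III genes IFNL1, IFNL2 and IFNL3 were at 0.127, 0 and 0 FPKM in control 0, at 0.0836, 0.0555 and 0.0708 FPKM in control 1, and at 0.495, 0.171 and 0.174 FPKM in siE2F1. IFNB1, which encodes interferon beta, was listed at 0, 0.0486 and 0.0656 FPKM in the same order of libraries. All 4 genes were highest in siE2F1, as were 39.2% of all genes listed. With levels this low and no read counts these 4 carry no test, and they were named after their values were seen.

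Other receptors of the same structural class, 4 tested, had a median log2 fold change of 0.09 and none passed in either fit. F3, the receptor for clotting factor VII, was at 4.40, 4.69 and 5.78 FPKM, and IFNLR1, the specific chain of the interferon lambda receptor, at 3.23, 2.995 and 3.50 FPKM. Among receptor chains outside the interferon family that signal through JAK1, 3 of 6 were above both controls and 2 below. Of all genes tested 43.7% were above and 39.7% below. The median log2 fold change of these 6 chains was 0.10, with 0.18 against control 0 alone and 0.007 against control 1 alone. IL6R, the interleukin-6 receptor, rose without small RNA genes, from 14.8 and 13.4 to 20.8 FPKM (log2 fold change 0.53, limma adjusted p = 0.0446; 0.119 over all genes).

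The other interferon regulatory factors showed no common direction: 2 of 5 were above both controls and 2 below, and none passed in either fit. The shares over all genes tested were 43.7% above and 39.7% below. IRF3, which is activated by nucleic acid sensors, was at 32.8, 33.3 and 28.3 FPKM (log2 fold change -0.22). The list's median of -0.03 was -0.13 against control 1 alone, 0.07 against control 0 alone and 0.05 among genes of at least 5 FPKM, so it has no stable sign. IRF3 was 7.65 and 8.07 times as high as IRF9 in the controls and 2.52 times as high in siE2F1.

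Of 13 tested inhibitors of the pathway, 7 were above both controls and 4 below (53.8% and 30.8%, beside 43.7% and 39.7% of all genes tested). The median log2 fold change of the inhibitors was 0.06 (0.01 against control 0 alone), with a range from -0.32 (SOCS7) to 0.49 (PIAS1). None passed over all genes, and 2 passed as higher without small RNA genes, where 4.17% of all genes did. PIAS1 and PIAS4, SUMO ligases that restrain STAT proteins, rose without small RNA genes (log2 fold changes of 0.49 and 0.45, limma adjusted p = 0.0402 and 0.0496; 0.111 and 0.119 over all genes). PIAS1 stood at 9.82, 10.1 and 14.4 FPKM and PIAS4 at 9.18, 9.84 and 13.4 FPKM. USP18, which blocks the type I receptor, had a log2 fold change of -0.22 (adjusted p = 0.162). The feedback inhibitors SOCS1 and SOCS3, like SOCS7 and USP18 named after their values were seen, were too low to test, with SOCS1 at 0.240, 0.261 and 0.156 FPKM and SOCS3 at 0.639, 0.731 and 0.372 FPKM.

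Downstream genes were read from a list of targets of the IRF9-containing complex and a list of targets of interferon gamma or IRF1. Of 27 tested ISRE-type targets, 26 were above both controls and 1 below, beside 43.7% and 39.7% of all genes tested. The median log2 fold change of these targets was 0.63. Over all genes 5 passed, all higher, where 0.312% of all genes passed as higher. Without small RNA genes 17 passed, all higher, where 4.17% of all genes did. BST2, IFI27 and IFI44 are among the 26 and the 17 but reached the 1 FPKM filter only through siE2F1; of the other 24, 23 were above both controls and 14 passed. Whatever their level, 31 of the 32 listed members were above both controls, beside 39.2% of all genes listed. With no filter the list's median log2 fold change was 0.55. OASL, IFIT1, IFI6 and RSAD2, antiviral effectors, had the largest log2 fold changes of those that passed over all genes, from 2.79 to 3.93. The list was known from earlier results on these libraries to be high, so its direction is no independent evidence. By sequence, 27 of the 32 listed members had a promoter window, whether tested or not, and 21 of those (77.8%) hold the ISRE core. Of all gene symbols with a window 4.38% do. The list was chosen as targets of the complex that binds this element, so a high share is in part built in.

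Of 9 tested type II and IRF1 targets, 4 were above both controls and 4 below, and their median log2 fold change was -0.01. With the 7 members too low to test, 6 of them above both controls, the count was 10 above and 4 below of 16 listed. The shares over all genes were 43.7% above and 39.7% below among those tested, and 39.2% and 36.6% among those listed. The list's median was 0.25 among genes of at least 5 FPKM, which leaves fewer members. None passed over all genes, and 2 rose without small RNA genes, where 4.17% of all genes passed as higher. GBP3, an interferon-induced GTPase, went from 9.75 and 9.74 to 14.7 FPKM (log2 fold change 0.54, limma adjusted p = 0.0374; 0.111 over all genes), and B2M, the invariant subunit of class I molecules, from 305 and 342 to 473 FPKM (0.55, adjusted p = 0.0475; 0.13 over all genes). The untested members include the chemokine genes CXCL10 (0.0565, 0.133 and 0.976 FPKM) and CXCL11 (0.0989, 0.0604 and 1.01 FPKM), named after their values were seen. The remaining 12 of the 28 symbols were not analysed here. The motif was sought in all 28 symbols of this list, so its windows include symbols whose levels were not analysed. Of the 18 symbols with a window, 12 (66.7%) hold the ISRE core, so the lists are not separated by that motif. No test of the difference between the lists was made.

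**Figure D4:**
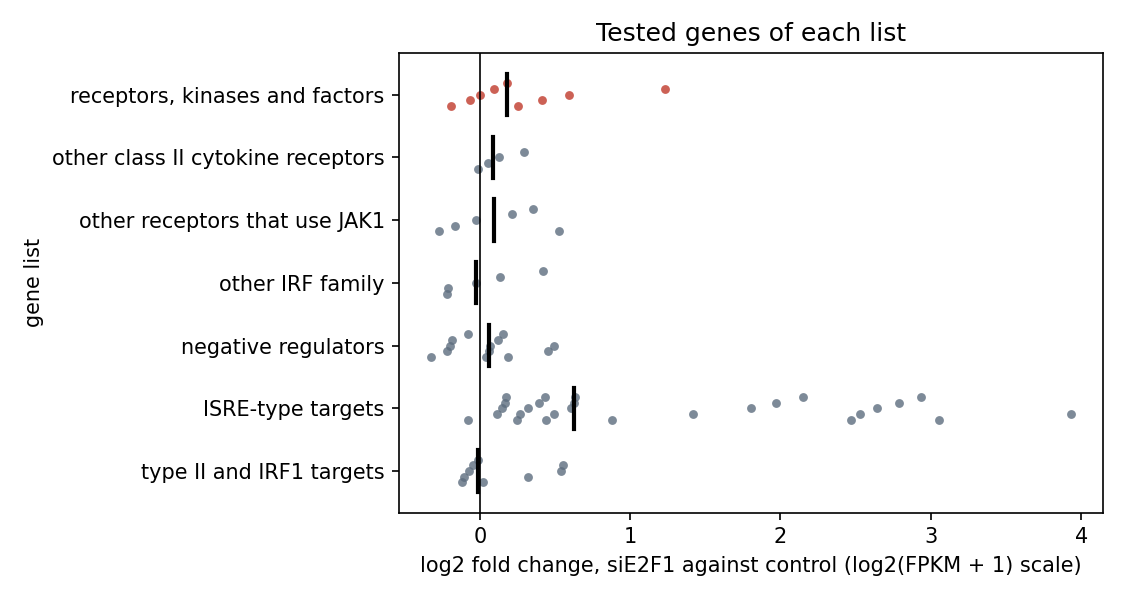
Log2 fold change (siE2F1 against control, log2(FPKM + 1) scale) of each tested gene (points) in each list, with the list's median (black bars); the 9 receptor, kinase and factor genes are in red. ISRE-type targets reach 3.93 with a median of 0.63, type II and IRF1 targets have a median of -0.01, and IRF9 at 1.23 is the red point to the right. The ISRE-type points include BST2, IFI27 and IFI44, which reached the 1 FPKM filter only through siE2F1.

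The genes whose pattern over the 3 libraries was nearest to each of IRF9, STAT2 and IFNGR1 were found among 12561 genes by the distance between their pairs of differences from control 0 and control 1. For IRF9 they were ACPP, PITPNA-AS1, IL36G, GLYATL1 and IFITM1, at distances of 0.1 to 0.173 log2 units. For STAT2 they were MAST4, LOC92249, XLOC_012975, NPC1 and XLOC_008306 (0.0137 to 0.0312). For IFNGR1 they were RB1CC1, PLCD1, GPAM, RBM15 and KIAA1211L (0.00299 to 0.0076). IFITM1, a membrane protein that blocks viral entry, was at 4.15, 4.92 and 12.0 FPKM, close to IRF9 in level as well. With 3 libraries many genes share a pattern by their size of change alone.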

How the data were processed

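Each RNA sequencing library (TruSeq RNA kit, named in the labels' protocols) has 1 file of log2 FPKM values, as deposited by the authors. TopHat2 2.0.4, Cufflinks 2.0.2 and hg19 are named in the submitters' processing notes; the annotation and any scaling between libraries are not given in the sources used here. Since the lowest value equals log2 of 0.1, FPKM was taken as 2 to the deposited log2 value minus 0.1. Groups came from sample titles. Genes whose mean reached 1 FPKM were fitted on log2(FPKM + 1) with limma 3.58.1 in R 4.3.3 (mean-variance trend, two-sided, Benjamini-Hochberg over 14401 genes, threshold 0.05). The fit has 1 residual degree of freedom, from the 2 controls, and siE2F1 is assumed to vary as they do. A second fit left out 473 small RNA genes (SNOR, MIR, SCARNA or RNU names, host genes kept), with prior degrees of freedom of 1.69 before and 3.19 after. The second fit was tested on simulated data and the first was not. The simulated data took their spread from that fit and gave siE2F1 the spread of the controls. They therefore cannot tell whether that assumption holds. Alternatives were a pseudocount of 0.1, no filter, a minimum of 5 FPKM, nothing subtracted, quantile normalization, no trend and each control left out. The 9 genes and the lists were chosen with earlier results of these data known. Named were all 9, E2F1, up to 4 called genes per list (or the 2 with the largest change), and the 5 nearest in pattern. Promoter windows were matched by symbol, and overlapping exons come from GENCODE 29. Other JAK and STAT genes are not reported here.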

Additional observations from a re-analysis of the deposited data

How the results depend on the processing

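Wherever they were tested with all 3 libraries, the 9 genes kept their direction (JAK1 and IRF1 drop out at a minimum of 5 FPKM, which left 7). IRF1, with no difference to speak of, was at -0.05 against control 0 alone and 0.06 against control 1 alone. IRF9 ranged from 1.21 to 1.39 in log2 fold change, with an adjusted p (limma) of 0.0221 to 0.188; it passed when small RNA genes were left out (1 gene of the 9 called higher) and under no other alternative tried. STAT2 was 0.46 without control 1 and 0.72 without control 0, and TYK2 0.10 and 0.26; with 1 control there is no test. Leaving out small RNA genes also gave 581 genes called higher and 886 lower in all, 17 ISRE-type targets, 2 inhibitors, 2 type II and IRF1 targets and 1 receptor that uses JAK1. A pseudocount of 0.1 gave 7 genes called higher in all and 2 ISRE-type targets. With no filter 0 genes passed higher and 0 lower, 0 ISRE-type targets among them, and 4862 genes reached 0.05 before adjustment. Among genes of at least 5 FPKM, 26 were called higher. E2F1 itself no longer passed with no filter (limma adjusted p = 0.159) or at the smaller pseudocount (0.0601). No paired analysis was possible because siE2F1 is a single library. Read depth is unknown, so no counting error can be given for the low genes, JAK1, IRF1 and the interferon genes above all.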
